A study of Mus musculus with 4 samples.

Results

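The Notch pathway and its HES and HEY effectors were followed through 10 genes in cultured mouse neural progenitors: the receptors *Notch1*, *Notch2* and *Notch3*, the ligands *Dll1*, *Dll3* and *Jag1*, the receptor-modifying enzyme *Lfng*, and the transcriptional repressors *Hes1*, *Hes5* and *Hey1*. They were taken by gene symbol, and all 10 were found among the 21091 entries of the expression tables and passed the minimum mean of 1 FPKM, as did 12449 entries in all. FPKM is the number of fragments scaled by transcript length and by the number of mapped fragments, so levels of genes of different length can be compared within a library, while comparisons between libraries rest on scaling that is not given in the sources used here.

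There were 4 RNA-seq libraries from C57BL/6 mice, CTL and *Stat3* cKO at E11 and at E14, with 1 library in each group. Progenitors were isolated from brains at embryonic day 11 (E11) or 14 (E14) and were grown in suspension for 3 days, with EGF and FGF in the medium, before RNA was taken. In *Stat3* cKO embryos both *Stat3* alleles were floxed around the exons that encode the SH2 domain, and Cre was driven by a rat Nestin promoter and enhancer, which acts in neural progenitors. The control is called WT in the labels and wild-type in the RNA-seq methods, whereas the animal methods give Nestin-Cre embryos with 1 floxed *Stat3* allele as the control, here CTL. The knockout is called cKO below. If the CTL embryos of these libraries lacked Cre, genotype and Cre cannot be told apart. No source used here says how many embryos went into a library. With 1 library per group, replicate spread is unknown, no test was made, and each difference is one between 2 libraries.

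*Stat3* itself had 7.41 FPKM in E11 CTL, 6.74 in E11 cKO, 27.6 in E14 CTL and 9.55 in E14 cKO, so the genotypes were far apart at E14 and close at E11. The paper states that this Cre line gives the knockout in neural progenitors by E14. A value for the whole gene does not measure loss of the floxed exons, so how complete deletion was in E11 cKO is unknown. The E14 libraries also differed in sex-linked transcripts, with *Ddx3y* at 0.0569 FPKM in CTL and 25.1 in cKO, and with *Xist* at 13.6 and 0.037 FPKM. At E14, sex and genotype cannot be told apart. All 8 markers of neural progenitors and radial glia on the list used, among them *Sox2*, *Nes* and *Pax6*, were above 1 FPKM in every library. Of the 6 meningeal and mesenchymal markers, all were above 1 FPKM at E11 and 4 were below it at E14. Their sum was 706 FPKM in E11 CTL, 651 in E11 cKO, 8.24 in E14 CTL and 4.89 in E14 cKO, so the E11 libraries held transcripts known from another cell type that were scarce at E14. The number of reads behind the values is unknown. The commonest ratio between low values of the same gene, which rest on few fragments, put the relative depth of the other libraries at 0.836 to 1.08 times that of E14 cKO.

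Notch signalling passes between neighbouring cells. A Delta or Jagged ligand on one cell binds a Notch receptor on the next, the receptor is cut by ADAM proteases and gamma-secretase, and its freed intracellular domain joins RBPJ and Mastermind-like proteins on DNA to switch on genes such as *Hes1* and *Hes5*. HES and HEY proteins are basic helix-loop-helix repressors that hold proneural genes such as *Neurog2* down, and in the ventricular zone of the embryonic brain the pathway is known for keeping radial glia undifferentiated while ligand-bearing neighbours become neurons. Proneural factors in turn activate *Dll1* and *Dll3*.

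The sequence before the transcription start was searched for the core of the RBPJ binding site, TGGGAA or its reverse complement TTCCCA, because RBPJ carries the Notch signal to DNA. RefSeq sequences of GRCm38.p6 were used, 250 bases before each start, and 8 of the 10 genes matched by symbol. *Hes1* and *Hey1* had no such sequence and were not searched. A match was present for 2 of the 8, *Hes5* and *Lfng*, which had the highest level and, in CTL, the largest stage difference of the 10 genes. It was present in 21.6% of all 32851 such windows, so 2 of 8 is near the background. The windows of these 2 genes are shown with the matches in capitals, and that of *Dll3*, which had the largest ratio between genotypes at E14 and no match, is shown beside them.
*Hes5*, chr4:154960673-154960922, plus strand: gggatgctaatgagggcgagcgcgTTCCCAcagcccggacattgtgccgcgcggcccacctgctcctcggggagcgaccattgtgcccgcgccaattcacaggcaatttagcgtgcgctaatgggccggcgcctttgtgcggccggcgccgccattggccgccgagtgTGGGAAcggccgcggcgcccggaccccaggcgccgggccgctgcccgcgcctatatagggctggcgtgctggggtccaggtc
*Lfng*, chr5:140607091-140607340, plus strand: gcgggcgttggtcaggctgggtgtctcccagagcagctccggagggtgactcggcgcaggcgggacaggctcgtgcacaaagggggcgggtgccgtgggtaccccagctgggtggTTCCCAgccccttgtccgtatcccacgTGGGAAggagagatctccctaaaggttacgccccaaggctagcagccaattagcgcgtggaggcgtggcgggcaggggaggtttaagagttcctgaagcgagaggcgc
*Dll3*, chr7:28301786-28302035, minus strand: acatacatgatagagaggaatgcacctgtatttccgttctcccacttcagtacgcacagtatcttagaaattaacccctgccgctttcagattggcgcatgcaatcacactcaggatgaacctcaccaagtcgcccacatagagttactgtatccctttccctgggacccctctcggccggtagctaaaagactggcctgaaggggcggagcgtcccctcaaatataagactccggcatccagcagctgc
In *Hes5* the matches begin 226 and 82 bases before the start, the farther one on the reverse strand, and in *Lfng* they begin 135 and 108 bases before it. The N-box bound by HES proteins, CACNAG or CTNGTG on the other strand, was present in the windows of 4 of the 8 genes, *Notch1*, *Notch2*, *Notch3* and *Lfng*, and in 36.7% of all windows. The STAT site TTCNNNGAA, the same on both strands, was in none of the 8 windows and in 7.02% of all windows. A match is only a match of letters, and no match says nothing of binding elsewhere.

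In E11 CTL, *Hes5* was the highest of the 10 genes and was followed by *Hes1*, *Jag1*, *Dll1*, *Dll3*, *Hey1*, *Notch2*, *Lfng*, *Notch1* and *Notch3*. In E14 CTL the order was *Hes5*, *Lfng*, *Hey1*, *Dll1*, *Hes1*, *Dll3*, *Notch1*, *Jag1*, *Notch2* and *Notch3*. *Hes5* was the highest in all 4 libraries, and *Jag1*, the third highest in E11 CTL, was the lowest in E14 cKO. Which neighbours in these orders differ beyond replicate spread cannot be said with 1 library per group. The positions below are those listed with the values. The submitters' processing notes name the builds mm8 and mm9 without saying which was used, and only 1 of the 10 genes starts within 1000 bases of its GRCm38 position.

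**Figure D1:**
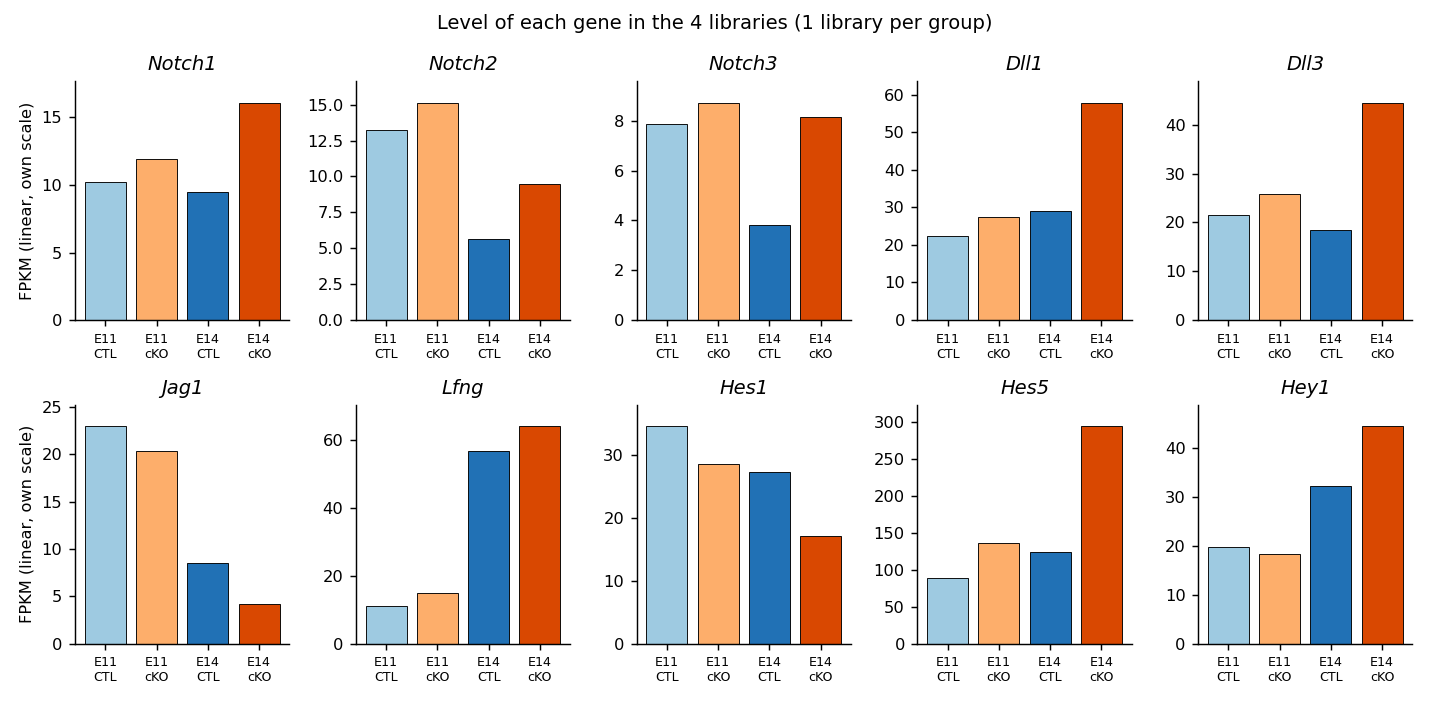
FPKM (vertical axes, linear from 0, each on its own scale) of the 10 genes in the 4 libraries, 1 bar per library and no error bars. E14 cKO is the highest library for *Notch1*, *Dll1*, *Dll3*, *Lfng*, *Hes5* and *Hey1* and the lowest for *Jag1* and *Hes1*.

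The receptors were higher in cKO than in CTL at E14. *Notch1*, the main receptor of cortical progenitors (chromosome 2, 26313421 to 26359342), was at 10.2 FPKM in E11 CTL, 11.9 in E11 cKO, 9.49 in E14 CTL and 16.1 in E14 cKO. It was nearly level in 3 libraries and 1.69 times CTL in the fourth. *Notch2*, its closest paralogue (chromosome 3, 97817460 to 97954290), had 13.3, 15.1, 5.67 and 9.47 FPKM in the same order of libraries. Its E14 values were below both E11 values, and within E14 it was 1.67 times CTL in cKO. *Notch3*, a receptor known both in progenitors and in mural cells of blood vessels (chromosome 17, 32257837 to 32303797), had 7.89, 8.72, 3.83 and 8.15 FPKM. E14 CTL was the low library and the other 3 lay close together, with a ratio of cKO to CTL of 2.13 at E14. Summed over the 3 receptors, the level was 31.4 FPKM in E11 CTL, 35.7 in E11 cKO, 19.0 in E14 CTL and 33.7 in E14 cKO. The share of *Notch1* in this sum was 32.6% and 33.3% at E11, and 49.97% and 47.7% at E14, in CTL and cKO. The share of *Notch3* was 25.1%, 24.4%, 20.2% and 24.2% in E11 CTL, E11 cKO, E14 CTL and E14 cKO, with E14 CTL apart. The ratio of *Notch1* to *Notch2* within a library was 0.772 and 0.786 at E11 and 1.67 and 1.70 at E14, so it separated by stage. The ratio of *Notch1* to *Notch3* was 1.30 and 1.36 at E11 and 2.48 and 1.97 at E14, so it also differed between genotypes at E14.

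The ligands split. *Dll1*, the Delta ligand of differentiating neighbours (chromosome 17, 15504317 to 15512787), was at 22.3 FPKM in E11 CTL, 27.4 in E11 cKO, 29.0 in E14 CTL and 57.8 in E14 cKO. The last library stood above the other 3. *Dll3*, a divergent Delta protein that acts inside the ligand-bearing cell (chromosome 7, 29078573 to 29086804), had 21.6, 25.8, 18.5 and 44.5 FPKM in the same order, again with E14 cKO apart. Its ratio of cKO to CTL at E14, 2.41, was the highest of the 10 genes, and 0.957% of all genes with a ratio had one at least as high. *Jag1*, a Jagged ligand (chromosome 2, 136907186 to 136942256), went the other way. It had 23.0 FPKM in E11 CTL, 20.4 in E11 cKO, 8.57 in E14 CTL and 4.24 in E14 cKO. Both E14 libraries were below both E11 libraries, and within E14 the ratio was 0.495. As a share of the 3 ligands, *Jag1* made up 34.3% in E11 CTL, 27.7% in E11 cKO, 15.3% in E14 CTL and 3.98% in E14 cKO.

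*Lfng* encodes Lunatic fringe, a glycosyltransferase that favours Delta over Jagged ligands at the receptor (chromosome 5, 141083294 to 141091499). It had 11.1 FPKM in E11 CTL, 15.04 in E11 cKO, 56.7 in E14 CTL and 64.1 in E14 cKO. The stages did not overlap, and the genotypes were close at E14, with a ratio of 1.13. Its log2 ratio between genotypes was farther from 0 at E11, 0.44, than at E14, 0.18, unlike that of the other 9 genes, but with upper-quartile scaling it was 0.32 and 0.33.

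The effectors split as well. *Hes5*, a Notch target of neural progenitors (chromosome 4, 154335031 to 154336480), was at 88.5 FPKM in E11 CTL, 137 in E11 cKO, 124 in E14 CTL and 294 in E14 cKO. cKO was above CTL at both stages, 1.55 times at E11 and 2.37 times at E14, and 1.67% of all genes at E11 and 1.02% at E14 had a ratio at least as high. *Hes1*, its paralogue, which is also driven by other signals (chromosome 16, 30065442 to 30067882), had 34.6, 28.7, 27.3 and 17.2 FPKM in the same order. E14 cKO was the low library, and the ratio of cKO to CTL was 0.828 at E11 and 0.63 at E14. *Hey1*, a HEY family repressor (chromosome 3, 8663358 to 8667038), had 19.7 and 18.3 FPKM at E11 and 32.3 and 44.4 FPKM at E14 in CTL and cKO. Both E14 values were above both E11 values, and cKO was at 0.929 times CTL at E11 and 1.38 times at E14.

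At E14, 4 of the 10 genes differed by at least 2-fold between genotypes, against 3.54% of all genes. Of these, 3 were at least 2-fold higher in cKO than in CTL, *Dll3*, *Hes5* and *Notch3*, against 1.85% of all 12430 genes with a ratio. *Jag1* was at least 2-fold lower, against 1.69% of all genes. *Dll1* lay just under the threshold, with a log2 ratio of 0.998, and passed it when the median of all genes was set to 0, where *Jag1*, at -0.94, no longer did. With a pseudocount of 1, only *Dll3* and *Hes5* stayed past 2-fold. Of the 10 genes, 8 had a ratio above 1, and of all genes 39.9% did. The median log2 ratio was 0.75 over the 10 genes and -0.079 over all genes. At E11, none of the 10 passed 2-fold in either direction, against 1.33% of all genes, 0.209% higher and 1.12% lower. There 7 of the 10 were above CTL, and of all genes 61.8% were. The median log2 ratio at E11 was 0.20 over the 10 genes and 0.059 over all genes. Upper-quartile scaling of the libraries shifted every log2 ratio by 0.15 at E14 and by -0.12 at E11 and changed the direction of none of the 10 genes at either stage. With it, 59.7% of all genes were above CTL at E14 and 37.2% at E11.

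**Figure D2:**
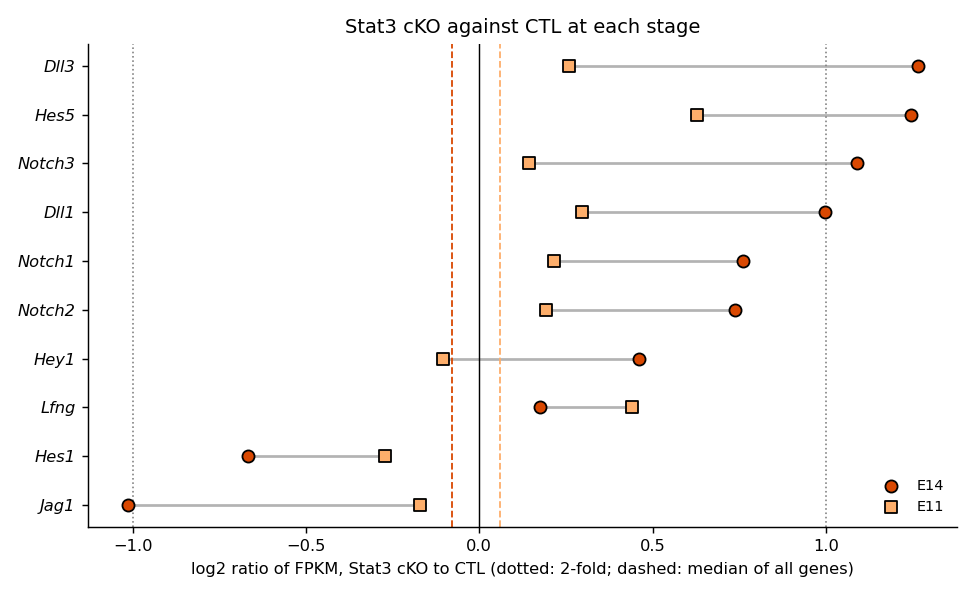
Log2 ratio of FPKM in cKO to CTL (horizontal axis) for each of the 10 genes at E14 (circles) and E11 (squares), 1 library per group; dotted lines mark 2-fold and dashed lines the median of all genes at each stage, -0.079 at E14 and 0.059 at E11. The E14 value lies farther from 0 than the E11 value for all genes but *Lfng*, whose order turns with upper-quartile scaling (0.32 at E11 and 0.33 at E14), and *Jag1* and *Hes1* are the genes below 0 at both stages.

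The genotype difference at E14 minus that at E11 was computed on the log2 scale for each gene, from 4 separate libraries and with no test. It was 1.01 for *Dll3*, 0.94 for *Notch3*, 0.70 for *Dll1*, 0.62 for *Hes5*, 0.57 for *Hey1*, 0.55 for *Notch2* and 0.54 for *Notch1*. It was -0.26 for *Lfng*, -0.39 for *Hes1* and -0.84 for *Jag1*. The ratio of cKO to CTL was thus higher at E14 than at E11 for 7 genes, among them *Hey1*, which was below CTL at E11. With upper-quartile scaling the value for *Lfng* turned to 0.011 and the count was 8, an alternative chosen after seeing the data. Of all 12419 genes with both ratios, 37.9% had a higher ratio at E14 than at E11, and 65.2% with upper-quartile scaling.

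Ratios between genes of the same library need no scaling between libraries. They come from the same values as the ratios above and are not independent of them. *Hes5*, *Hey1*, *Dll1* and *Dll3* were highest and *Hes1* and *Jag1* lowest in E14 cKO. That the ratios of the former to the latter were highest there follows from this. The ratio of *Hes5* to *Hes1* was 2.56 in E11 CTL, 4.78 in E11 cKO, 4.54 in E14 CTL and 17.1 in E14 cKO. The E14 cKO value was 3.77 times that of E14 CTL, whereas E11 cKO and E14 CTL were nearly equal. The ratio of *Dll1* to *Jag1* was 0.972, 1.34, 3.38 and 13.6 in the same order, so these ligands were at similar levels at E11 and *Dll1* prevailed at E14, where the ratio in cKO was 4.03 times that in CTL. The ratio of *Dll3* to *Dll1* stayed between 0.639 and 0.967 in the 4 libraries. *Hey1* passed from below *Hes1* at E11, with ratios of 0.57 and 0.64, to above it at E14, with 1.18 in CTL and 2.58 in cKO. Summed over *Hes1*, *Hes5* and *Hey1*, the effectors had 143 FPKM in E11 CTL, 184 in E11 cKO, 183 in E14 CTL and 356 in E14 cKO, and *Hes5* made up 62.0%, 74.4%, 67.5% and 82.7% of this sum.

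**Figure D3:**
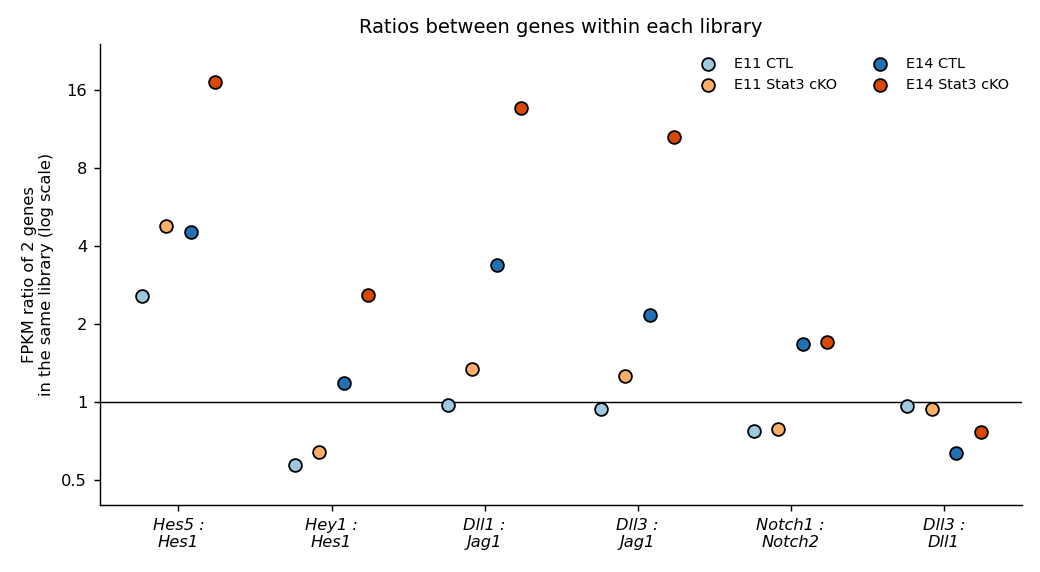
Ratio of the FPKM values of 2 genes in the same library (vertical axis, log scale) for 6 pairs of genes, with 1 point per library. For *Hes5* to *Hes1*, *Hey1* to *Hes1*, *Dll1* to *Jag1* and *Dll3* to *Jag1* the E14 cKO library is the highest, as follows from the levels of the single genes. For *Notch1* to *Notch2* the points separate by stage at 0.772 to 0.786 and 1.67 to 1.70.

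From E11 to E14 in CTL, 4 of the 10 genes differed by at least 2-fold, against 27.1% of all genes. *Lfng* was at least 2-fold higher (5.12 times), against 14.6% of all genes, and *Notch2*, *Notch3* and *Jag1* were at least 2-fold lower, at 0.428, 0.486 and 0.373 times, against 12.5% of all genes. In cKO it was 5 of the 10, against 21.8% of all genes. There *Lfng* (4.26 times), *Hey1* (2.42), *Hes5* (2.15) and *Dll1* (2.11) were at least 2-fold higher at E14, against 10.1% of all genes, and *Jag1* (0.208) was lower, against 11.7%. These stage comparisons use the same libraries as the genotype comparisons and are not independent of them. In cKO the stages also differed in sex-linked transcripts, with *Ddx3y* at 0 FPKM at E11 and 25.1 at E14 and *Xist* at 39.7 and 0.037, so sex and stage cannot be told apart there. *Dll3* was at 0.857 times its E11 value at E14 in CTL and at 1.72 times in cKO, and *Notch3* at 0.486 and 0.934 times. The difference between genotypes in these stage ratios was not tested. The median log2 ratio of the 10 genes was -0.17 in CTL and 0.61 in cKO, and that of all genes 0.21 and 0.058. Upper-quartile scaling shifted the CTL stage ratios by -0.34 and those of cKO by -0.062 and turned the direction of none of the 10 genes.

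**Figure D4:**
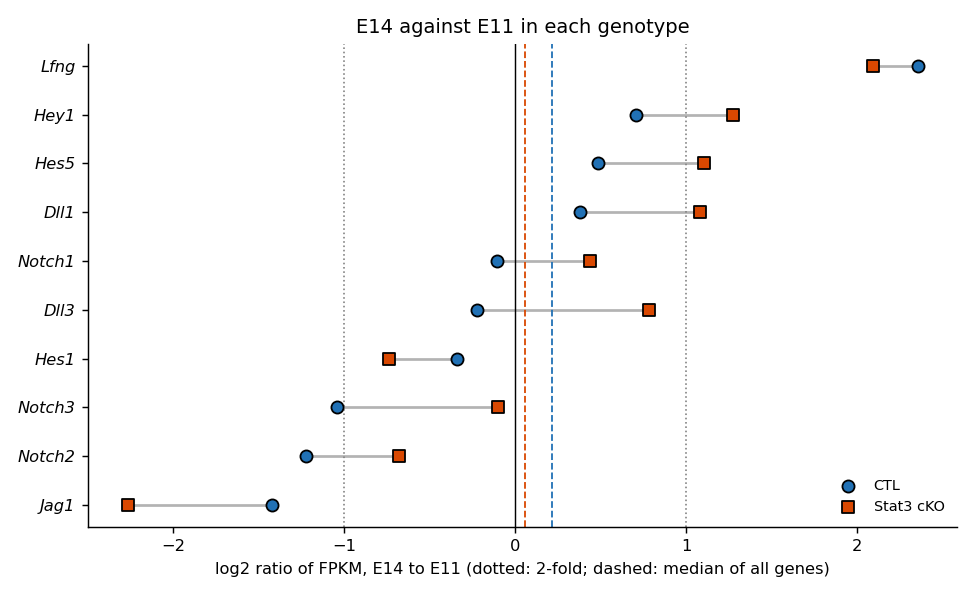
Log2 ratio of FPKM at E14 to E11 (horizontal axis) for each of the 10 genes in CTL (circles) and cKO (squares), 1 library per group; dotted lines mark 2-fold and dashed lines the median of all genes, 0.21 in CTL and 0.058 in cKO. *Lfng* is highest and *Jag1* lowest in both genotypes, and *Notch1* and *Dll3* lie below 0 in CTL and above 0 in cKO.

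Markers of several cell types moved with stage. Of the 7 endothelial markers 6 in CTL and 5 in cKO were lower at the later stage, and of the 7 neuron markers 6 and 5 were higher. Of all genes, 60.5% in CTL and 53.3% in cKO were higher at E14. Upper-quartile scaling turns the neuron marker *Tubb3* (log2 ratios 0.30 and 0.019) lower in both genotypes and *Dcx* (0.13) lower in CTL. Of the 5 astrocyte markers 4 were higher in both genotypes. The sum of the 5 was 0.656 times E11 in CTL and 0.898 times in cKO. *Gja1*, the most abundant of them at E11, had 138 and 174 FPKM at E11 and 13.1 and 15.7 at E14, in CTL and cKO. The 5 oligodendrocyte lineage markers summed to 67.4 FPKM in E11 CTL, 87.8 in E11 cKO, 560 in E14 CTL and 532 in E14 cKO, and 4 of the 5 were higher at E14 in both genotypes. At E14, *Sox10*, a factor of that lineage, had 6.74 FPKM in CTL and 20.6 in cKO, *Pdgfra*, a receptor of its precursors, had 35.9 and 61.2, and 3 of the 5 markers were higher in cKO. The most abundant of the 5 went the other way, with *Olig1* at 345 and 311 FPKM and *Olig2* at 168 and 134. All 6 meningeal and mesenchymal markers were lower at E14 than at E11 in both genotypes, with a summed level of 0.0117 times E11 in CTL and 0.00751 times in cKO. Of the 6 mural markers, 5 were lower at E14 in CTL and 4 in cKO, and *Pdgfrb*, a mural and mesenchymal receptor, had 13.2 and 14.4 FPKM at E11 and 0.625 and 1.58 at E14. The part of these cells in the stage ratios of the 10 genes was not tested. In bulk libraries, fewer cells of a type and less RNA per cell cannot be told apart. Between genotypes at E14, the summed mural markers were at 3.61 FPKM in CTL and 5.89 in cKO, with 4 of the 6 higher in cKO. The endothelial markers summed to 1.18 and 1.73, with 3 of the 7 higher, mostly through *Cldn5* at 0.551 and 1.04, and the mesenchymal markers to 8.24 and 4.89, with 1 of the 6 higher. All 7 endothelial markers were below 1 FPKM in E14 CTL and 6 of the 7 in E14 cKO. All 7 neuron markers were lower in cKO at E14, with sums of 1035 and 880.4 FPKM. Of the 8 progenitor markers 7 were higher, with sums of 7380 and 7865 FPKM that are mostly *Fabp7*. Of all genes, 39.9% were higher in cKO at E14, and 59.7% with upper-quartile scaling. That scaling shifts log2 ratios by 0.15 and turns *Tubb3*, a neuron marker at -0.14, higher in cKO. The 5 astrocyte markers summed to 97.7 FPKM in E14 CTL and 164 in E14 cKO, and 4 of the 5 were higher in cKO, while *Gfap*, the intermediate filament of astrocytes, had 0.901 and 0.186. The part of cell make-up in the genotype ratios of the 10 genes was not tested.

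The rest of the pathway was described from 10 lists of 75 further genes, of which 65 passed the minimum of 1 FPKM. Highest and lowest members of a list are named by the mean over the 4 libraries. At E14, 3 of the 65 were at least 2-fold higher in cKO and none was 2-fold lower, against 1.85% and 1.69% of all genes. Their median log2 ratio was 0.075, and that of all genes -0.079. At E11 none of the 65 passed 2-fold in either direction, against 1.33% of all genes, with a median of 0.052 beside 0.059 over all genes. The 3 genes at E14 were *Mfng*, *Hey2* and *Helt*.

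*Mfng*, which encodes Manic fringe, another glycosyltransferase of the fringe family, had 26.5 FPKM in E11 CTL, 29.8 in E11 cKO, 12.7 in E14 CTL and 26.8 in E14 cKO. As for *Notch3*, E14 CTL was the low library and the other 3 were close together. *Hey2*, a paralogue of *Hey1*, had 1.16, 1.07, 0.802 and 3.58 FPKM in the same order, with E14 cKO apart. The values of the other libraries lay near the minimum, so its passing rests in part on E14 cKO, where it is high. That it was called higher in cKO was thus in part fixed by the minimum. *Helt*, a HES-related repressor known from the midbrain, had 3.39 and 5.11 FPKM at E11 but 0.125 and 0.575 at E14, so its passing the minimum rests on E11. With a pseudocount of 1, its log2 ratio at E14 went from 2.21 to 0.49 and that of *Hey2* from 2.16 to 1.35.

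Between genotypes at E14, 13.5% of all genes differed by at least 1.5-fold, so lists of 4 to 13 genes with none or 1 past it are near the background. Of the 9 receptor cleavage genes that passed the minimum, none differed by 1.5-fold at E14, and their median log2 ratio was 0.012. The lowest of this list, *Aph1c*, had 0.543 and 0.819 FPKM at E14, a ratio of 1.51, and did not pass the minimum. *Psenen*, the gamma-secretase subunit with the highest level, had 78.9 FPKM in E14 CTL and 79.6 in E14 cKO. None of the 9 genes of the nuclear complex differed by 1.5-fold at E14 either. *Rbpj*, which encodes the DNA-binding partner of Notch, had 25.5, 30.3, 15.7 and 15.6 FPKM in E11 CTL, E11 cKO, E14 CTL and E14 cKO, so it followed stage. *Snw1*, the highest of that list, had 85.4 and 76.3 FPKM at E14, and *Maml1*, the lowest by that mean, had 1.54 and 1.60. *Mib1*, the ubiquitin ligase that lets ligands be pulled into the sending cell, had 38.8 FPKM in E14 CTL and 36.6 in E14 cKO, and *Neurl1a*, the lowest of the 4 ligand endocytosis genes, had 2.37 and 2.16, with none of the 4 past 1.5-fold. Among the 13 corepressors the median was -0.036, and *Tle1*, a Groucho protein that HES factors recruit, was the only one past 1.5-fold, with 31.3 and 55.1 FPKM. *Hdac2*, the highest of them, had 256 FPKM in E14 CTL and 195 in E14 cKO. Among the receptor glycosylation genes other than *Mfng*, *Poglut1* was the highest, with 25.2 and 25.7 FPKM at E14, and *Gxylt1* the lowest, with 3.65 and 2.83.

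Of the 9 genes listed here as negative regulators, 7 were above CTL at E14, against 39.9% of all genes. None reached 2-fold, against 3.54%. With upper-quartile scaling, 59.7% of all genes were above CTL at E14. At E11, 7 of the 9 were above CTL, against 61.8% of all genes. The log2 ratios of the 9 at E14 had a median of 0.34. Whether each of them, such as *Dtx2* and *Dtx3*, restrains Notch in these cells was not tested. *Nrarp*, a direct Notch target that feeds back on the receptor's intracellular domain, had 26.3 FPKM in E11 CTL, 36.7 in E11 cKO, 36.9 in E14 CTL and 61.7 in E14 cKO, with E11 CTL the lowest and E14 cKO the highest library, as for *Hes5*. *Dtx3*, the highest of this list by the mean though below *Nrarp* at E14, had 58.8, 47.1, 32.4 and 44.4 FPKM, and *Dtx2*, the lowest, stayed between 4.78 and 6.69. *Fabp7*, a lipid-binding protein of radial glia that Notch activates, had 516, 594, 5245 and 5929 FPKM, so it followed stage and was 1.13 times CTL at E14. *Gas1*, the lowest of the other targets, was below CTL at both stages, with 25.3 and 18.3 FPKM at E11 and 39.5 and 28.9 at E14. *Hes6*, which opposes HES1, had 62.9 and 85.2 FPKM at E11 and 107 and 112 at E14, in CTL and cKO.

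Of 5 proneural genes repressed by HES factors that passed the minimum, 4 were above CTL at E14, against 39.9% of all genes. None reached 2-fold, against 3.54%. With upper-quartile scaling, 59.7% of all genes were above CTL at E14. At E11 also 4 of the 5 were above CTL, against 61.8% of all genes. *Neurog1* and *Neurod4* are 2 of the 4 and were below 1 FPKM in both E14 libraries, so they passed the minimum through E11. *Neurog2*, the highest of them and an activator of *Dll1*, had 40.8 FPKM in E11 CTL, 43.8 in E11 cKO, 13.0 in E14 CTL and 20.9 in E14 cKO. Both E14 libraries were below both E11 libraries. *Atoh1*, the lowest of the list, was at most at 0.234 FPKM and did not pass the minimum. *Rbpj*, *Tle1* and *Nrarp* fall outside the rule for naming genes and were chosen after their values had been seen.

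**Figure D5:**
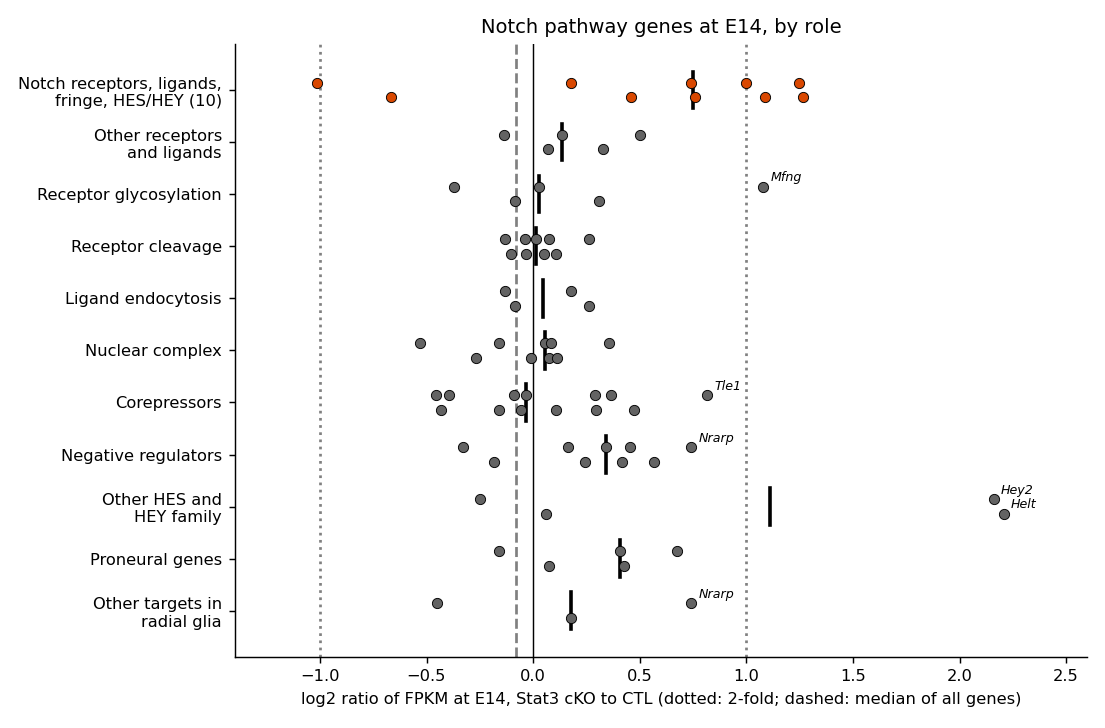
Log2 ratio of FPKM at E14 in cKO to CTL (horizontal axis), with 1 point per gene that passed the minimum, for the 10 genes followed here and the 10 pathway lists; black ticks are list medians, dotted lines 2-fold, and the dashed line the median of all genes, -0.079. *Mfng*, *Hey2* and *Helt* lie beyond 2-fold, the cleavage genes lie within 1.5-fold, and *Nrarp* is in 2 lists.

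The genes most like *Hes5*, *Hes1* and *Dll1* in pattern were sought by searching 9191 genes, each averaging 5 FPKM or more with no value of 0, by the Euclidean distance between log2 profiles over the 4 libraries, each centred on its own mean. Those nearest to *Hes5* were *Myo10*, at a distance of 0.171, *Hist1h2ao* at 0.283, *Dll1* at 0.301, *Aldh4a1* at 0.396 and *Nrarp* at 0.411. *Myo10* had 6.24 FPKM in E11 CTL, 8.68 in E11 cKO, 9.23 in E14 CTL and 20.9 in E14 cKO. Those nearest to *Dll1* were *Gstk1*, *Slc35g2*, *Speg*, *Wnt7b* and *Nudt12*, at 0.157 to 0.205. *Wnt7b*, a Wnt ligand, had 25.4, 26.6, 30.2 and 55.2 FPKM in the same order. Those nearest to *Hes1* were *Phlda3*, *Lphn2*, *Nop14*, *Eea1* and *Stt3a*, at 0.0683 to 0.175, and *Phlda3* had 41.1, 32.1, 32.4 and 20.1 FPKM. Of the pairs among the 10 genes, *Dll1* and *Hes5* were the nearest and *Notch1* and *Dll3*, at 0.377, came next. With 4 libraries a small distance is a description of 4 values.

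Several of these genes share exon bases with another gene in the GRCm38 annotation of GENCODE M21. This held for 5 of the 10, and for *Notch1*, *Notch3*, *Dll1* and *Hes5* the other gene lies on the opposite strand. *Notch2* shares 541 exon bases with *Gm42820*, which lies on the same strand. None of those partners is listed in the expression tables. Whether the libraries kept strand is not given in the sources used here, so fragments of the opposite-strand partners cannot be told apart from those of the 4 genes. For *Notch2*, even libraries that kept strand would not separate fragments of the shared bases.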

How the data were processed

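RNA-seq of 4 libraries of cultured neural progenitors was analysed. The authors checked reads with FastQC, ran the TopHat-Cufflinks (Tuxedo) workflow and deposited 1 FPKM value per entry and library. The tables do not name the unit, which was taken from this workflow. The submitters' processing notes name Bowtie 0.12.2 and the builds mm8 and mm9. The annotation and any scaling between libraries are not given in the sources used here. Values were used as deposited, as plain ratios without a pseudocount, over entries with a mean of at least 1 FPKM. A value of 0 gave no ratio, and a ratio of 2 counted as higher or lower. With 1 library per group no test was made. The 10 genes and all lists were chosen with earlier results of these data known. Pathway genes were named where they passed 2-fold between genotypes or were the highest or lowest of their list, and exceptions are stated. A gene that this rule names is not reported here. Steps were tested on simulated data with 200 changed genes. Alternatives were pseudocounts of 0.1 and 1, the median of all genes set to 0, upper-quartile scaling, a minimum mean of 5 FPKM or none, and folds of 1.5 and 3. Python 3.11.15, numpy 2.4.6, pandas 2.3.3 and matplotlib 3.10.9 were used.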

Additional observations from a re-analysis of the deposited data

How the results depend on the processing

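The number of the 10 genes past the threshold depended mostly on the threshold itself. Between genotypes at E14 it was 4 at 2-fold, 8 at 1.5-fold (13.5% of all genes) and 0 at 3-fold (0.893%), and with a pseudocount of 1 it was 2. At E11 it was 0 at 2-fold and 1 at 1.5-fold (5.84%). From E11 to E14 it was 4 in CTL and 1 at 3-fold (12.4%), and in cKO it was 5, with 8 at 1.5-fold (41.7%) and 2 at 3-fold (11.6%). The median log2 ratio of the 10 genes kept its direction in all 4 comparisons under both pseudocounts, both scalings and both other minimums, and so did each of the 40 single ratios under the pseudocounts and scalings. With upper-quartile scaling the median was 0.90 between genotypes at E14, 0.081 at E11, -0.50 between stages in CTL and 0.55 in cKO. The settings for *Mfng*, *Hey2* and *Helt* were chosen after seeing the data. No library could be left out, since each group has 1. No paired analysis was possible because each group holds 1 library and the labels give no replicate numbers. The depth behind the FPKM values is unknown, so counting error cannot be given.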

Other observations

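Of the 5 other receptors and ligands that passed the minimum, 3 were at least 2-fold higher and 1 lower at E14 than at E11 in each genotype, against 27.1% of all genes past 2-fold in CTL and 21.8% in cKO. Between genotypes none of the 5 passed 2-fold at either stage, against 3.54% of all genes at E14 and 1.33% at E11. *Cntn1*, which encodes a neuronal adhesion protein, had 4.18 FPKM in E11 CTL, 3.57 in E11 cKO, 34.1 in E14 CTL and 42.8 in E14 cKO. *Dner*, a Delta-like receptor of neurons and the highest of its list, had 23.5, 19.3, 49.6 and 54.4 FPKM in the same order. *Dlk1*, an imprinted Delta-like gene, went the other way, with 4.66 and 4.08 FPKM at E11 and 0.123 and 0.174 at E14, so it passed the minimum only through E11. *Jag2*, a paralogue of *Jag1*, stayed between 2.69 and 3.24 FPKM in the 4 libraries. *Dll4* and *Notch4*, the ligand and receptor known from blood vessels, were below 1 FPKM in every library. *Cntn1*, *Dlk1*, *Jag2*, *Notch4*, *Maml2*, *Neurog1* and *Neurod4* were named after their values had been seen.

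All 5 proneural genes that passed the minimum were at least 2-fold lower at E14 than at E11 in both genotypes, against 12.5% of all genes in CTL and 11.7% in cKO, and their median log2 ratio was -1.65 in CTL and -1.46 in cKO. *Neurog1* and *Neurod4* passed the minimum only through E11, where they were high, so that they were lower at E14 was in part fixed by the minimum. In the nuclear complex 4 of 9 genes were at least 2-fold lower in CTL and 2 of 9 in cKO, beside the same shares of all genes, and 1 of the 9, *Maml2*, was 2.36 times its E11 value at E14 in cKO, where 10.1% of all genes were at least 2-fold higher. *Maml1* had 4.52 and 4.22 FPKM at E11 against 1.54 and 1.60 at E14. Of the HES and HEY family, *Hes2* was the lowest, between 0.0264 and 0.169 FPKM in the 4 libraries.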
